A study of Mus musculus with 12 samples.

Results

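The complement genes described here are C1qa, C1qb, C1qc, C1ra, C2, C3, C3ar1, Cfb and Serping1, chosen by name as components, proteases, a receptor and a regulator of the complement system. A gene was measured where a probe set of the array carried its symbol and no other, and the probe set with the highest mean over all tumours stood for the gene. Of the 9 genes, 8 were measured, each by 1 probe set, among 19937 named genes on the array. C3 is not analysed here.

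Complement is a cascade of plasma and tissue proteins that marks cells and debris for removal. In the classical pathway C1q, built from the products of C1qa, C1qb and C1qc, recognises a surface, and the proteases C1r and C1s that it carries then cleave C4 and C2 to form a convertase that activates C3. The alternative pathway forms its convertase from C3 and factor B, the product of Cfb. The C1 inhibitor, encoded by Serping1, blocks C1r and C1s, and C3ar1 encodes the receptor for C3a, the small fragment released from C3. Liver makes most plasma complement, but in tissues macrophages are the main source of C1q, and fibroblasts and other stromal cells make C1r, C1s and C1 inhibitor.

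The samples were 12 prostate tumours, 6 grown in p62 KO mice and 6 in wild-type (WT) mice. All hosts were C57BL6 mice, and each received 50000 cells of TRAMP-C2Re3, a carcinoma line of mouse prostate, by injection into the prostate. Tumours were taken after 60 days, so all groups carry the same injected cells and differ in the genotype of the host. The age of the mice is not given in the sources used here. The protein p62, encoded by Sqstm1, is an autophagy receptor and a signalling adaptor. The host genotype is that of the whole mouse, and the labels name no cell type in which p62 was removed. Total RNA of whole tumour was amplified and hybridised to 1 array per tumour, and values are log2 intensities. In such bulk RNA, fewer cells of a type and less RNA per cell cannot be told apart.

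On 4 arrays, those of the p62 KO tumours KO2 and KO3 and the WT tumours WT2 and WT5, the interquartile range of the log2 values was narrower (2.15 to 2.59) than on the other 8 (2.70 to 2.95), and each difference in the set is given over those 8 as well. Sqstm1 stood at 8.73 ± 0.39 (SD, n = 6) in p62 KO hosts and 8.89 ± 0.23 (SD, n = 6) in WT hosts. Because the labels name no loss of p62 in the injected cells, this level does not check the host label. The mean level of 11 macrophage markers ranged from 8.58 to 9.31 in p62 KO hosts and from 8.68 to 9.23 in WT hosts, and that of 10 fibroblast markers from 9.01 to 9.70 and from 9.29 to 9.65. Of the hepatocyte genes, Alb lay below the array's lower quartile in all 12 tumours and Apoa1 ranged from 6.39 to 7.21. Ttr, Fgb and Ahsg, also hepatocyte genes, exceeded the lower quartile in 2, 1 and 4 of 12 tumours. The epithelial gene Krt8 ranged from 7.76 to 8.65, and Epcam exceeded the lower quartile in 0 of 12. Apoa1 and Krt8 had r of -0.97 and -0.82 with the array interquartile range. Of the macrophage markers, Adgre1 had r 0.90 and Trem2 r -0.76 with it. How far these levels reflect cell content or the array range was not tested.

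None of the 8 complement genes passed an adjusted p of 0.05 between p62 KO and WT hosts (limma, two-sided, Benjamini-Hochberg over 28192 probe sets). The background was 1 probe set in all, or 0.00355% called, that of the pseudogene Nlrp1c-ps, which was lower in p62 KO hosts (named after its value was seen). At an unadjusted p under 0.05 it was 0 of 8 genes against 2.39% of all probe sets. The difference was above 0 in 6 of the 8 genes and in 57.2% of all probe sets, and 0 of 8 had groups that did not overlap against 0.145% of all probe sets. The median difference over the 8 genes was 0.07 on the log2 scale, and the median over all probe sets was 0.02. With the arrays set to a common median, 4 of 8 genes and 46.4% of all probe sets were above 0.

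The recognition genes C1qa, C1qb and C1qc went up and down together from tumour to tumour, and none of them passed the test between hosts. C1qb and C1qc are shown first because they are neighbours, because the 3 genes lie side by side in the RefSeq order C1qb, C1qc, C1qa of protein-coding genes, and because their levels moved together. The sequences are the 220 bases from 250 to 31 bases before the RefSeq start (GRCm38.p6, minus strand), for C1qb at chr4:136886231-136886450 and for C1qc at chr4:136892945-136893164, and capitals mark a match to a searched motif.
C1qb: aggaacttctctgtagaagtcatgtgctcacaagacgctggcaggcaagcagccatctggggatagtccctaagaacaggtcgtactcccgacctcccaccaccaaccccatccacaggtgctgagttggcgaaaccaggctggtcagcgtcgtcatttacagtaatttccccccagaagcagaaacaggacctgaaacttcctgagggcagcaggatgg
C1qc: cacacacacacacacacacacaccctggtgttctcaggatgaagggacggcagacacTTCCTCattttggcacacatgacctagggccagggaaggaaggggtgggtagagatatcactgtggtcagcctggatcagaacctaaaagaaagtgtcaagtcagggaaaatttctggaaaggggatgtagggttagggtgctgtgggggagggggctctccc
Promoters were given for 5 of the 9 genes, and the C1qa promoter is not used here. The motifs searched on both strands were the PU.1 core GAGGAA, the interferon response element (GAAA, then any 2 bases, then GAAA), the gamma-activated site TTCNNNGAA, the AP-1 site TGANTCA and the NF-kB site GGGANTTCC. C1qc held 1 match to the PU.1 core, on the reverse strand, 193 to 188 bases before the start. The C1qb window held no match. Of 32851 windows of the same length, 20.4% held the PU.1 core, 2.63% the interferon response element, 6.27% the gamma-activated site, 6.12% the AP-1 site and 1.13% the NF-kB site. A match is a description of the letters only.

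C1qa ranged in p62 KO hosts from 8.02 through a median of 8.19 to 8.53, and in WT hosts from 7.46 through 8.07 to 8.44. WT2 was the lowest tumour and KO4 the highest, and the groups overlapped. The mean was 8.25 ± 0.19 (SD, n = 6) against 8.04 ± 0.32 (SD, n = 6), a difference of 0.21 (SE 0.15, 95% interval -0.10 to 0.53), 1.16-fold, with a limma adjusted p of 0.994. Over the 8 tumours with wider arrays the difference was 0.071.

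C1qb ranged from 8.99 through 9.26 to 9.56 in p62 KO hosts and from 8.78 through 9.16 to 9.31 in WT hosts. KO2 was highest and WT2 lowest. The groups overlapped. The mean was 9.25 ± 0.21 against 9.12 ± 0.21 (SD, n = 6 each), a difference of 0.13 (SE 0.12, 95% interval -0.13 to 0.39), and 0.052 over the 8 tumours with wider arrays.

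C1qc ranged from 10.10 through 10.37 to 10.70 in p62 KO hosts and from 9.97 through 10.29 to 10.45 in WT hosts. Again KO2 was highest and WT2 lowest, and the groups overlapped. The mean was 10.37 ± 0.20 against 10.26 ± 0.18 (SD, n = 6 each), a difference of 0.11 (SE 0.11, 95% interval -0.13 to 0.35), and it was -0.0032 over the 8 tumours with the wider range. KO2 and WT2, which set the extremes of C1qb and C1qc, both have narrow arrays. Beside these genes, 9 of 11 macrophage markers had a difference above 0 and 0 of 11 passed the test, with Csf1r at 9.62 ± 0.20 against 9.43 ± 0.46, Cd68 at 10.67 ± 0.34 against 10.47 ± 0.10 and Adgre1 at 9.74 ± 0.66 against 9.87 ± 0.48 (SD, n = 6 each). Their part in the C1q levels was not tested.

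**Figure D1:**
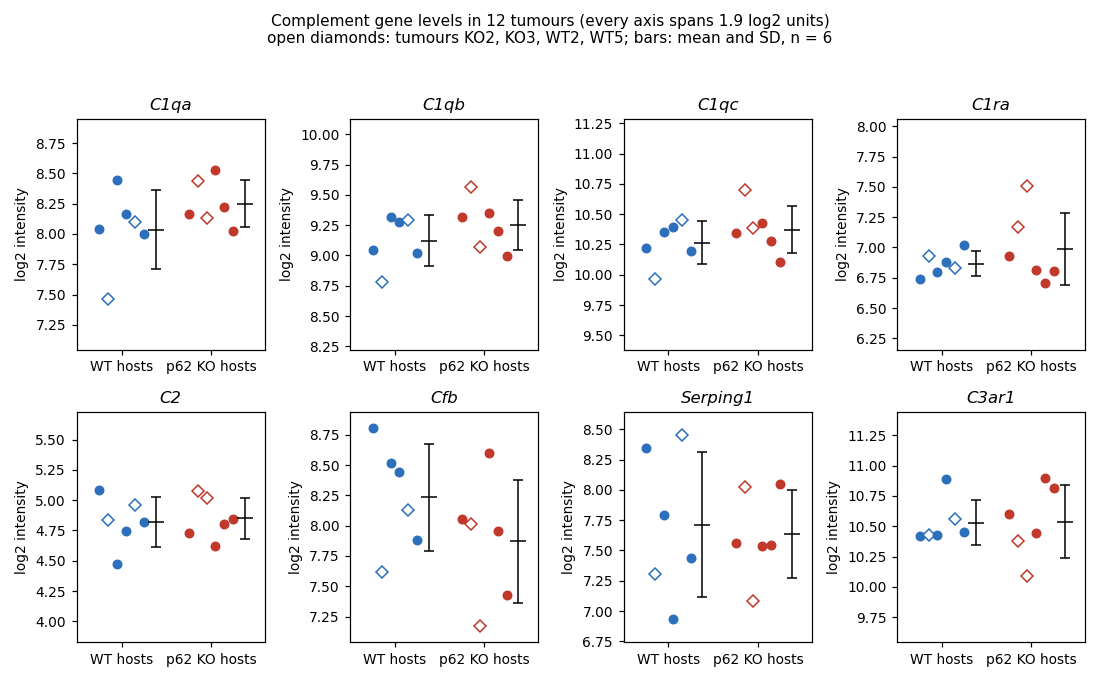
Log2 intensity (y axis) of each measured complement gene in every tumour, WT hosts in blue and p62 KO hosts in red, with bars for the mean and SD. Each axis spans the same number of log2 units. Open diamonds mark KO2, KO3, WT2 and WT5, whose arrays had a narrower range. The groups overlap in all 8 panels.

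The C1q genes formed the 3 pairs with the highest r among the 28 pairs of measured genes of the set. Over 12 tumours C1qb and C1qc had Pearson's r of 0.93 and Spearman's rho of 0.85, with permutation p-values adjusted over 28 pairs of 0.00112 and 0.0147. Without WT2 and KO2, the tumours farthest from the median, r was 0.80 (adjusted permutation p = 0.0946), and over the 8 tumours with wider arrays it was 0.94 (adjusted permutation p = 0.0146). C1qa and C1qb had r 0.86 and rho 0.88 (adjusted permutation p = 0.00448 and 0.00952). Without WT2 and KO4 r was 0.81 (adjusted permutation p = 0.0624), and over the 8 tumours 0.83 (adjusted permutation p = 0.117). C1qa and C1qc had r 0.79 and rho 0.69 (adjusted permutation p = 0.0407 and 0.155), and r 0.69 without WT2 and KO4 (adjusted permutation p = 0.27) and 0.78 over the 8 tumours (adjusted permutation p = 0.117). Without its 2 farthest tumours, and so with fewer in the test, none of the 3 C1q pairs passed. In all, 3 of 28 pairs passed by r and 2 by rho, and each of these was a C1q pair. Among 19936 other genes, C1qb and C1qc were each other's most similar gene by r (a reading chosen after values were seen). Also picked after values were seen, C4b, a component of the classical convertase, had r 0.82 with C1qb, rank 8 of 19936, and r 0.58 over the 8 tumours with wider arrays.

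By the same measure over 12 tumours, the 5 genes most like C1qa were Psmb8 (r 0.91), a subunit of the immunoproteasome, P2ry6 (0.91), a receptor for UDP, Arrb2 (0.89), an arrestin, Actrt2 (0.87) and C1qb (0.86). Over the 8 tumours with wider arrays the values were 0.80 for Psmb8, 0.78 for P2ry6, 0.71 for Arrb2, 0.68 for Actrt2 and 0.83 for C1qb, which then ranked 97 among 19936 genes. Actrt2 ranged from 4.65 to 5.07, near the lower quartiles of the arrays (4.85 to 5.36). Of the macrophage genes, Csf1r, the receptor for the growth factor CSF1, had r 0.85 and rho 0.63 with C1qa (adjusted permutation p = 0.0521 and 0.225 over 64 pairs with marker genes). That relation had r 0.40 without WT2 and KO4, the tumours farthest from the median of C1qa, and r 0.86 over the 8 tumours with wider arrays (adjusted permutation p = 0.215). Centred within host genotype r was 0.84 (adjusted permutation p = 0.0264), and with the arrays set to a common median 0.89 (adjusted permutation p = 0.00864), so the call depends on the setting. Adgre1, which encodes the macrophage surface protein F4/80, had r 0.38 with C1qa (adjusted permutation p = 0.524) and r 0.75 over the 8 tumours with wider arrays. Adgre1 itself was 8.66 to 9.55 on the 4 narrow arrays and 9.85 to 10.41 on the other 8, and the part of this in the relation was not tested. Cd68 and Mrc1, also macrophage genes, had r 0.15 and 0.32 with C1qa, and 0.10 and -0.08 over the 8 tumours. With Adgre1, Csf1r, Cd68 and Mrc1 in order, C1qb had r 0.22, 0.60, -0.01 and 0.24, and C1qc -0.09, 0.44, -0.23 and -0.04. Over the 8 tumours these were 0.69, 0.71, -0.16 and -0.09 for C1qb, and 0.59, 0.69, -0.32 and -0.28 for C1qc. None of these pairs passed by r in either set of tumours.

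**Figure D2:**
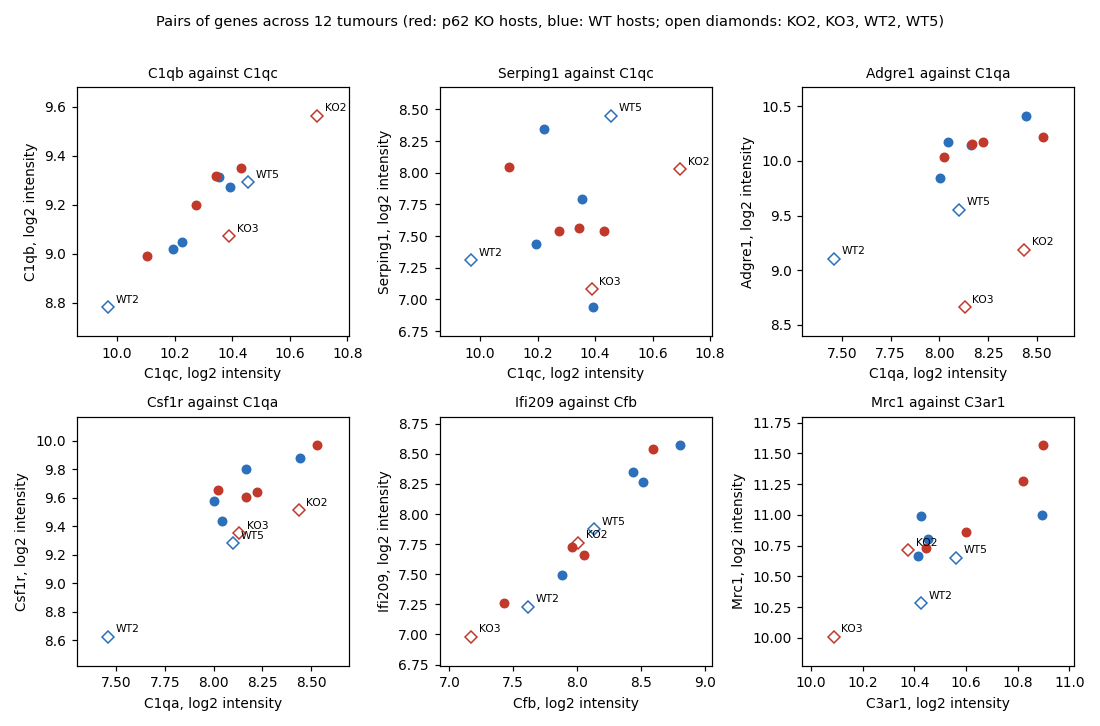
Log2 intensity of paired genes across the 12 tumours, in 6 panels (C1qb and C1qc, Serping1 and C1qc, Adgre1 and C1qa, Csf1r and C1qa, Ifi209 and Cfb, Mrc1 and C3ar1), with points coloured by host. C1qb and C1qc lie near a line (r 0.93), and so do Ifi209 and Cfb (r 0.98), which was picked from 19936 genes for its likeness.

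C1ra, which encodes the C1r protease, ranged from 6.71 through 6.87 to 7.50 in p62 KO hosts and from 6.74 through 6.86 to 7.02 in WT hosts, and KO3 and KO2 were its highest tumours. The mean was 6.99 ± 0.30 against 6.87 ± 0.10 (SD, n = 6 each), and the groups overlapped. The difference was 0.12 (SE 0.13, 95% interval -0.15 to 0.40, limma adjusted p 0.994), and it was -0.053 without KO2 and KO3 and -0.046 over the 8 tumours with wider arrays. C1ra was 6.83 to 7.50 on the 4 narrow arrays and 6.71 to 7.02 on the other 8, and the part of the array range in its level was not tested. C1ra lies between C1rl and C1s1 in the RefSeq gene order.

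Serping1 ranged from 7.08 through 7.55 to 8.05 in p62 KO hosts and from 6.94 through 7.61 to 8.45 in WT hosts. The highest tumours were WT5 (8.45) and WT1 (8.34), and WT4 was the lowest. The mean was 7.63 ± 0.36 against 7.71 ± 0.60 (SD, n = 6 each), a difference of -0.08 (SE 0.25, 95% interval -0.62 to 0.47), and it turned to 0.048 over the 8 tumours with wider arrays. The spread of Serping1 among tumours of either host was larger than the difference between hosts. Of 10 fibroblast markers, 4 had a difference above 0. Col1a1, Pdgfra and Dcn, fibroblast genes, had r with C1ra of 0.34, -0.61 and -0.41, and with Serping1 of 0.28, -0.05 and -0.16, and 0 of these 6 pairs passed. The 3 genes with the highest r to Serping1 were Tdrp (0.84), Bmp2 (0.83) and Sfrp1 (0.81), picked after values were seen.

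C1ra and Serping1 did not track each other, with r -0.40 over 12 tumours (adjusted permutation p = 0.619). The 6 pairs of a C1q gene with C1ra or Serping1 had r from -0.02 to 0.31, and 0 of 6 passed. Over the 8 tumours with wider arrays the same pairs had r from -0.56 to 0.0019. C1ra and Adgre1 had r -0.82 and rho -0.79 (adjusted permutation p = 0.0521 and 0.101), and r was -0.45 without KO3 and KO2 and -0.61 over the 8 tumours with wider arrays. Centred within host genotype r was -0.83 (adjusted permutation p = 0.0215), and with the arrays set to a common median -0.72 (adjusted permutation p = 0.0888), so the call depends on the setting. C1ra and Adgre1 had r of -0.79 and 0.90 with the array interquartile range, and the part of this was not tested. With C3ar1, C1ra had r -0.67 (adjusted permutation p = 0.111), and -0.27 without KO3 and KO2.

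As a description with no test, the mean deviation of the 3 C1q genes was set against that of C1ra and Serping1 in each tumour. In p62 KO hosts the difference was 0.12 (KO1), 0.05 (KO2), -0.01 (KO3), 0.34 (KO4), 0.19 (KO5) and -0.30 (KO6). In WT hosts it was -0.35 (WT1), -0.30 (WT2), 0.16 (WT3), 0.45 (WT4), -0.27 (WT5) and -0.07 (WT6). Tumours of both hosts lie on both sides of 0, and the means of 0.06 ± 0.22 and -0.06 ± 0.32 (SD, n = 6 each) differ by less than either SD. The difference between hosts was 0.13 over all tumours and 0.04 over the 8 with wider arrays. The mean deviation of the C1q genes minus that of the macrophage list was 0.45 in KO3, 0.41 in KO2 and -0.44 in KO6. In WT tumours this measure lay between -0.12 and 0.19. The C1q genes themselves deviated by -0.02 in KO3 and the macrophage list by -0.46. For KO2 the 2 values were 0.35 and -0.06, and for KO6 -0.18 and 0.26. KO2 and KO3 have narrow arrays, and the part of the array range was not tested.

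**Figure D3:**
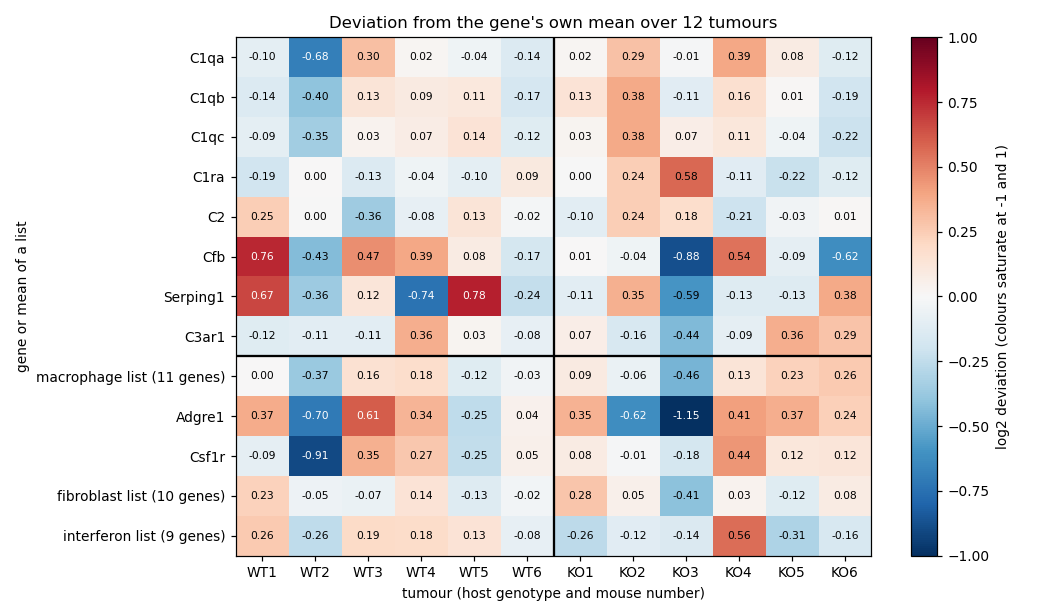
Heat map of deviations from each gene's mean over 12 tumours (log2 units, colours saturate at 1 unit either way), tumours in columns from WT1 to WT6 and KO1 to KO6, complement genes and marker lists in rows. The 3 C1q genes share their pattern, with WT2 low in all 3 and KO2 high in C1qb and C1qc.

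Cfb, the serine protease of the alternative convertase, ranged from 7.17 through 7.98 to 8.60 in p62 KO hosts and from 7.62 through 8.29 to 8.81 in WT hosts. KO3 was lowest and WT1 highest. The mean was 7.87 ± 0.51 against 8.23 ± 0.44 (SD, n = 6 each), and the groups overlapped. The difference was -0.36 (SE 0.24, 95% interval -0.89 to 0.16), or 0.778-fold, with a limma adjusted p of 0.994. Over the 8 tumours with wider arrays it was -0.40, and without KO2 and KO3 it was -0.22. This was the lowest difference among the 8 genes. In the interferon response list 1 of 9 measured genes had a difference above 0, its level ranged from 7.15 to 8.01 in p62 KO hosts and from 7.20 to 7.72 in WT hosts, and its part in the Cfb level was not tested.

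The genes most like Cfb over 12 tumours were Ifi209 (r 0.98), Gbp4 (0.94), Ifi203 (0.94), Fgl2 (0.93) and P2ry14 (0.93). Ifi209, Ifi203 and Gbp4 are genes induced by interferons. Over the 8 tumours with wider arrays r was 0.97, 0.94, 0.93, 0.96 and 0.98 in the same order. Ifi209 ran from 6.98 in KO3 to 8.57 in WT1, the tumours with the lowest and highest Cfb. With the marker gene Irf7, an interferon regulatory factor, Cfb had r 0.58 (adjusted permutation p = 0.228).

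C2, the classical counterpart of factor B, is the next protein-coding gene to Cfb. It ranged from 4.63 through 4.82 to 5.08 in p62 KO hosts and from 4.48 through 4.83 to 5.08 in WT hosts. It exceeded the array's lower quartile in 1 of 12 tumours. The mean was 4.85 ± 0.17 against 4.82 ± 0.21 (SD, n = 6 each), and the groups overlapped. The difference was 0.03 (SE 0.11, 95% interval -0.21 to 0.27), and its sign turned with the scaling. Over the 8 tumours with wider arrays it was -0.030. C2 and Cfb had r -0.29 (adjusted permutation p = 0.674).

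C3ar1 is shown with its promoter as the receptor in the set. The window (GRCm38.p6, minus strand, chr6:122856188-122856407) held no match to the searched motifs.
C3ar1: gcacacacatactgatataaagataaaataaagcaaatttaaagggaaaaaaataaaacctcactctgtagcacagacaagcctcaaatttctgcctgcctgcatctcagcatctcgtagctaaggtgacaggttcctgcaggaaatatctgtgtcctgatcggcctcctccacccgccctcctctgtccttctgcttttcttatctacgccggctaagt
The receptor gene ranged from 10.09 through 10.52 to 10.90 in p62 KO hosts and from 10.42 through 10.44 to 10.89 in WT hosts. KO5 and WT4 were the highest tumours, and KO3 the lowest. The mean was 10.54 ± 0.30 against 10.53 ± 0.19 (SD, n = 6 each), and the groups overlapped. The difference was 0.01 (SE 0.14, 95% interval -0.29 to 0.31), and it was 0.14 over the 8 tumours with wider arrays and 0.16 without KO2 and KO3.

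C3ar1 was also set against Mrc1, which encodes the mannose receptor of macrophages. Over 12 tumours r was 0.85 (adjusted permutation p = 0.0448 over 64 pairs) and rho was 0.80 (adjusted permutation p = 0.101). Without KO5 and WT4 r was 0.83 (adjusted permutation p = 0.162), and over the 8 tumours with wider arrays 0.80 (adjusted permutation p = 0.239). This was 1 of 64 pairs to pass by r and 0 of 64 passed by rho. C3ar1 and Mrc1 had r of 0.62 and 0.71 with the array interquartile range, and the part of this was not tested. Outside the marker list and picked after values were seen, the genes with the highest r to C3ar1 were Cldn24 (0.96), a claudin, and Tlr13 (0.92), a toll-like receptor. Cldn24 ranged from 3.44 to 4.10, below the lowest lower quartile of any array (4.85). Mrc1 stood at 10.86 ± 0.54 in p62 KO hosts and 10.73 ± 0.27 in WT hosts (SD, n = 6 each).

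In the wider complement list, 56 of 60 genes were measured and 0 passed the adjusted threshold. At an unadjusted p under 0.05, 1 was higher (Fcna) and 1 lower (C1s2), against 1.28% and 1.11% of all probe sets. The difference was above 0 in 40 of 56 genes, with a median of 0.06, and in 36 of 56 with the arrays set to a common median. Of the role groups, the classical pathway had 8 of 10 genes above 0, the lectin pathway 8 of 9, the alternative pathway 1 of 2, the terminal pathway 6 of 7, the fluid phase regulators 5 of 8, the membrane regulators 4 of 8 and the receptors 8 of 12, beside 57.2% of all probe sets. With the arrays set to a common median these counts were 7 of 10 for the classical pathway, 4 of 7 for the terminal pathway and 7 of 12 for the receptors, equal in the other groups, and 46.4% of all probe sets. A common median leaves the array range as it was. Lectin and terminal genes had negative r with the array interquartile range, down to -0.93 (Mbl2) and -0.92 (C6), except Masp1 (0.63), Colec12 (0.56) and Hc (0.22). C9 exceeded the lower quartile in 0 of 12 tumours, C7 in 1 and C6 in 2. The part of the array range in these counts was not tested.

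Fcna, encoding ficolin-A of the lectin pathway, stood at 6.92 ± 0.45 in p62 KO hosts and 6.45 ± 0.23 in WT hosts (SD, n = 6 each), a difference of 0.47 (SE 0.19). KO2 (7.36), KO5 (7.33) and KO6 (7.19) were high, and the groups overlapped. Colec12, a scavenger receptor of the collectin family, differed by 0.29 (SE 0.21). C1s2, a protease gene related to C1s1, stood at 6.90 ± 0.14 and 7.11 ± 0.13, a difference of -0.21 (SE 0.09). C1s2, named for its small unadjusted p, ranged from 6.75 to 7.10 in p62 KO hosts and from 6.99 to 7.35 in WT hosts. The 2 groups overlapped. C1s1, picked after values were seen as the neighbour of C1ra, ranged from 8.24 to 9.24 in p62 KO hosts and from 8.82 to 9.15 in WT hosts, a difference in means of -0.29 (SE 0.18), with KO2 (8.31), KO3 (8.24) and KO5 (8.35) low. The C1s1 difference was -0.067 without KO2 and KO3 and -0.052 over the 8 tumours with wider arrays. All had limma adjusted p-values of 0.994.

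In the other groups, C4a, listed here with the classical pathway, differed by 0.21 (SE 0.12). Properdin (Cfp), which stabilises the alternative convertase, differed by 0.17 (SE 0.11). The regulators Vtn and Clu differed by 0.21 (SE 0.13) and -0.28 (SE 0.20). Itgam, the alpha chain of complement receptor CR3, differed by 0.30 (SE 0.16), and C5ar1, the C5a receptor, by 0.22 (SE 0.17). Both genes are expressed by neutrophils and macrophages. Of the neutrophil markers, 5 of 5 had a difference above 0, against 57.2% of all probe sets. Their mean level was 5.61 to 6.42 in p62 KO hosts and 5.52 to 5.96 in WT hosts. Ly6g exceeded the lower quartile in 1 of 12 tumours. With the array interquartile range, S100a8, Ly6g, S100a9 and Cxcr2 had r -0.74, -0.73, -0.44 and -0.01, and Csf3r 0.51. The part of these markers and of the array range was not tested. The terminal components C8a and C6 differed by -0.12 (SE 0.11) and 0.20 (SE 0.19). C6 exceeded the lower quartile in 2 of 12 tumours, and KO3 (5.56) and KO2 (5.35), both on narrow arrays, were its highest. The surface regulators Cd59b and Cd55 differed by 0.16 (SE 0.12) and -0.15 (SE 0.13), and both lay below the lower quartile in all 12 tumours.

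**Figure D4:**
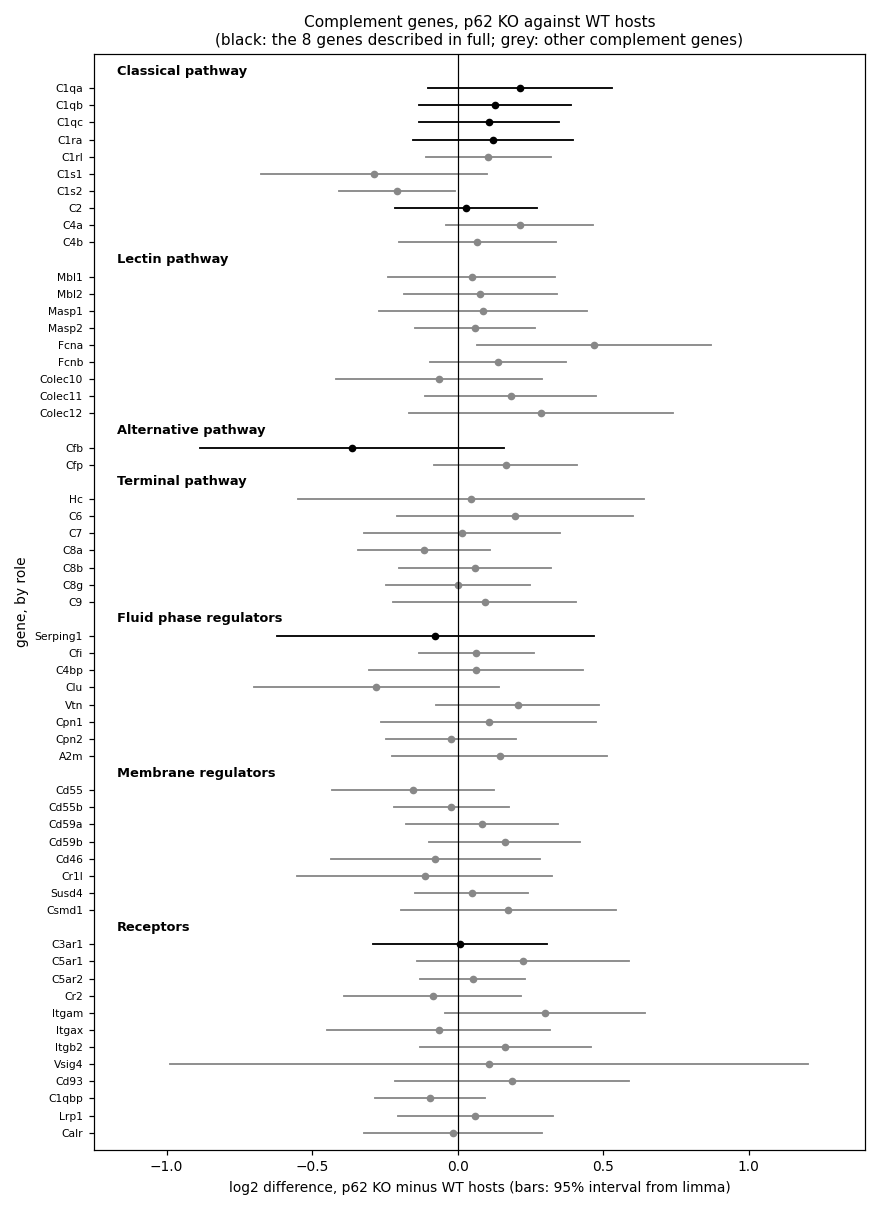
Difference in mean log2 intensity between p62 KO and WT hosts (x axis) for the 56 measured complement genes, grouped by role, with 95% limma intervals, the measured genes of the set in black. The interval crosses 0 in all 56 except Fcna and C1s2.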

How the data were processed

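Log2 intensities per probe set were deposited for 12 tumours, made by the authors with RMA per the submitters' processing notes (background correction, normalization and summary of the probes of a set), version not given; array model and scan batch are not given in the sources used here. Of 34760 rows, 6568 with the lowest identifiers and no gene were taken as controls and 28192 probe sets were tested (21640 with 1 gene symbol, 1321 with several, 5231 with none). Symbols come from the platform annotation, and updating them changed 0. Differences between hosts were fitted with limma 3.58.1 in R 4.3.3 (lmFit, eBayes, two-sided, Benjamini-Hochberg over all probe sets), with no covariate. Pearson's r and Spearman's rho over tumours have permutation p-values from 100000 resamples, adjusted over 28 pairs of measured genes or 64 pairs with marker genes. Genes and lists were chosen with earlier results of these data known. Named genes are the set itself, in each role group the 2 other genes with the smallest unadjusted p, listed marker genes, and the 5 genes most like C1qa and Cfb; the part of the rule for C3 was not applied, since C3 is not analysed here. Sequences are from RefSeq (GRCm38.p6). Tumour numbers in the labels do not state a pairing. The number of arrays limits the precision. The fit was tested on simulated data, with noise drawn for each probe set on its own, unlike arrays whose range differs as a whole. There it recovered 36% of changes of 0.5 log2 units and 76% of changes of 1. The differences of the 8 complement genes lay between -0.36 and 0.21, so changes of their size could be missed.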

Additional observations from a re-analysis of the deposited data

Results flagged for a closer look

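In the WT tumours, C3ar1 in WT4 stood at 10.89 against 10.42 to 10.56 in the other WT tumours, a gap larger than Dixon's 95% limit for 6 samples. C1s2 in WT1 stood at 7.355 against 6.99 to 7.12 in the other WT tumours, likewise past that limit. Of 60 groups examined, 2 stood out in this way, and chance gives about 1 in 20.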

How the results depend on the processing

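Over the 26 settings tried, 12 of them leaving out 1 tumour, no complement gene passed the adjusted threshold, and the lowest unadjusted p of a member was 0.0443 (Cfb without KO4). Leaving out 1 tumour gave C1qa 0.10 to 0.30, C1qb 0.06 to 0.18, C1qc 0.04 to 0.16, C1ra 0.02 to 0.18, C2 -0.040 to 0.081, C3ar1 -0.063 to 0.10, Cfb -0.51 to -0.22 and Serping1 -0.23 to 0.071, and the difference between hosts in C1q against C1ra and Serping1 0.07 to 0.23. Among the other complement genes named, it gave Clu -0.38 to -0.10, Vtn 0.11 to 0.27, Colec12 0.14 to 0.39, C6 0.06 to 0.28, Cd55 -0.23 to -0.07, Cd59b 0.08 to 0.22, C8a -0.17 to -0.06, C4a 0.14 to 0.28, Cfp 0.11 to 0.23, C5ar1 0.14 to 0.34, Itgam 0.22 to 0.38, Fcna 0.38 to 0.59, C1s1 -0.39 to -0.19 and C1s2 -0.25 to -0.16. Without KO2 and KO3, Vtn was 0.034, Cd59b 0.027, Clu -0.50 and C4a 0.10. In these leave-outs the sign of C2 turned without KO2, KO3 or WT3, that of C3ar1 without KO1, KO5, KO6, WT1, WT2, WT3 or WT6, and that of Serping1 without KO3, WT1 or WT5, and the count of probe sets called lower was 0 in each except without KO2 or WT2, where it was 1. Signs turned as follows, and the cause was not tested: without KO2, KO3, WT2 and WT5, C1qc -0.0032, C1ra -0.046, C2 -0.030 and Serping1 0.048; without KO2 and KO3, C1ra -0.053, C2 -0.069 and C6 -0.092; with array weights, C1ra -0.025, C2 -0.084 and C6 -0.0091; with a common median, C2 -0.0056 and C3ar1 -0.026; with quantile normalization, C2 -0.026; with the interquartile range as covariate, C2 -0.0086; with the macrophage level as covariate, C3ar1 -0.042. The 1 probe set called lower fell to 0 with the mouse number as replicate block, without KO2 and KO3, over all rows and with the fibroblast level as covariate. The replicate block gave a C1qa difference of 0.21 with 0 complement genes called; deviations of same-numbered tumours correlated at -0.55 to 0.37, and 0 of 6 matched their own number best. Correlations that missed the threshold were, over the 8 tumours with wider arrays, 0.83 (C1qa and C1qb), 0.78 (C1qa and C1qc) and 0.80 (C3ar1 and Mrc1), and without the 2 farthest tumours 0.81 and 0.69 for those C1q pairs, 0.80 (C1qb and C1qc) and 0.83 (C3ar1 and Mrc1). Correlations that newly passed, centred within host genotype, were C1qa with Csf1r 0.84, Irf7 0.77 and Cfb 0.72, and C1ra with Adgre1 -0.83, Cd68 -0.84 and Mrc1 -0.78 (adjusted permutation p from 0.0189 to 0.0484), and, with a common median, C1qa with Csf1r 0.89. Over the 8 tumours with wider arrays none of these pairs passed. There C1ra had r -0.61 with Adgre1, -0.72 with Cd68 and -0.42 with Mrc1 (adjusted permutation p = 0.542, 0.408 and 0.746). With a common median these 3 pairs also missed the threshold (adjusted permutation p = 0.0888, 0.112 and 0.113). The setting over 8 tumours for the C1q genes against C1ra and Serping1 was chosen after seeing the data. The filter on dim probe sets removed C2, C6, Cd59b and Cd55, so it gave them no value.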
